A study of Homo sapiens with 12 samples.

Results

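Metallothioneins are small, cysteine-rich proteins of the cytosol that bind zinc, copper and cadmium through the sulphur of their cysteines. The metal-responsive transcription factor MTF1 senses free zinc through its zinc fingers, binds metal response elements in the promoters of metallothionein genes and of the zinc exporter gene SLC30A1, and drives their transcription. In the kidney, metallothioneins are known for holding cadmium and zinc in the proximal tubule and for buffering oxidants. Glucocorticoids also induce several of these genes. The 8 genes described here are the metallothionein genes MT1A, MT1E, MT1F, MT1G, MT1M, MT1X and MT2A and the regulator MTF1. They were matched by symbol to the Ensembl identifiers of the expression tables, with pseudogenes left out. All 8 were found among the 62703 identifiers, and all 8 were among the 14639 genes with enough signal to be tested, which required a TPM (the length-corrected share of transcripts, scaled to the same total in each library) of at least 1 in 3 or more libraries.

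The values come from RNA-seq of HK2 cells, an immortalised line of human proximal tubule epithelium, in 12 libraries with 3 in each group. The NG cells were kept at 5.5 mM glucose and received a control vector, and the HG cells were exposed to 50 mM glucose. The si-FGF9 cells were kept at 5.5 mM glucose and transfected with an siRNA against FGF9, a secreted fibroblast growth factor. The HG+OE-FGF9 cells were exposed to 50 mM glucose and carried a vector overexpressing FGF9. The paper's methods call that vector a lentivirus, whereas its results call it an adenovirus. HG was compared with NG for the effect of glucose (below, the glucose comparison), si-FGF9 with NG for that of the siRNA (the siRNA comparison), and HG+OE-FGF9 with HG for that of FGF9 overexpression (the overexpression comparison). No non-targeting siRNA and no vector control at 50 mM glucose were described, so the agent and its delivery cannot be told apart. No vector was described for HG, so in the glucose comparison glucose cannot be told apart from the control vector given to NG. The paper's methods give no osmotic control for NG, whereas its results name mannitol, so an osmotic effect cannot be told apart either. The glucose and siRNA comparisons share the NG libraries, and the glucose and overexpression comparisons share those of HG, so their values are not independent. Nothing in the labels says that the 3 libraries of a group came from separate cultures, so that a p-value measures only the spread between these libraries, which may be technical.

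TPM keep no record of depth, so the depth of each library is unknown. FGF9 was listed at 0 in all libraries of NG, HG and si-FGF9 and at 3.34, 4.03 and 3.82 TPM in HG+OE-FGF9, so the knockdown could not be checked at this level. The number of genes that reached 1 TPM moved with the groups, at 13795 to 13949 per library for NG, 12350 to 13111 for HG, 13008 to 13236 for HG+OE-FGF9 and 11549 to 12013 for si-FGF9, and its part in the differences from NG was not tested. Of the 14 proximal tubule markers, 4 were tested, with GGT1 at 71.7 to 195 TPM but LRP2 and CUBN at no more than 0.02 and SLC22A6 and SLC22A8 listed at 0 throughout. Of the 9 renal epithelial markers, 8 were tested. PAX8 stayed at 19.7 TPM or more, whereas PAX2 reached at most 2.01 and CDH1 (E-cadherin), which was not tested, at most 0.28. Among markers of other kidney cells, UMOD, SLC12A1 and AQP2 were listed at 0 in every library. Of the 6 fibroblast markers, COL1A1 and LUM were tested. The mean of LUM was 66.6 TPM for NG, 28.1 for HG, 14.4 for si-FGF9 and 13.0 for HG+OE-FGF9, and its part in the results was not tested. HG replicate 3 and si-FGF9 replicate 3 stood apart from their groups for several metallothioneins. The log2 fold changes on TPM as deposited that rest most on them are given with and without them, but not every share or rescaled value is.

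On GRCh38, as annotated in GENCODE 29, the 7 metallothionein genes lie in a row on chromosome 16. MT2A (ENSG00000125148) occupies chr16:56608199-56609497, followed by MT1E (ENSG00000169715, chr16:56625475-56627112), MT1M (ENSG00000205364, chr16:56632233-56633986), MT1A (ENSG00000205362, chr16:56638666-56640087), MT1F (ENSG00000198417, chr16:56657694-56660698), MT1G (ENSG00000125144, chr16:56666731-56668065) and MT1X (ENSG00000187193, chr16:56682424-56684196). MT1G is on the minus strand and the other 6 are on the plus strand. Each has a protein-coding transcript of 3 exons. MTF1 (ENSG00000188786) lies apart, at chr1:37809567-37859620 on the minus strand, with 11 exons. The authors may have used another build.

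The coding sequences of MT2A and MT1X are shown because these genes made up most of the family's RNA and had unlike patterns in HG, although their open reading frames are nearly the same. They are in coding orientation from the start codon, without the stop codon, and the capitals mark the cysteine codons TGC and TGT.
MT2A: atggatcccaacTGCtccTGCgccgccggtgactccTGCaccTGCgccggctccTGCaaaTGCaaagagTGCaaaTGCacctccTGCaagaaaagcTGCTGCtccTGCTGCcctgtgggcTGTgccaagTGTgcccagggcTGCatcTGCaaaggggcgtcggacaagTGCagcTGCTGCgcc
MT1X: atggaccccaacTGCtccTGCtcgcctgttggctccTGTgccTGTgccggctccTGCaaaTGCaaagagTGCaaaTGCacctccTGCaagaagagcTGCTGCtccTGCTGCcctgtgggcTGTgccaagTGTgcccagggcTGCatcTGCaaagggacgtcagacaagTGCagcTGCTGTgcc
Each has 183 coding bases with 20 cysteine codons among 61 codons. Identity of the coding bases was 92.3% for MT2A with MT1X and 88.5% for MT1F with MT1X. MT1G is a codon longer, with 186 bases. Such likeness bears on the measurement, because a read that fits several genes can be given to any of them. Of all windows of 50 bases along the coding transcript, 45.1% in MT1X and 20.2% in MT1G also occurred in transcripts of other genes, pseudogenes included, and 14.7% and 16.9% in those of other members. The share with any other gene was 3.59% to 7.05% in the other 5 metallothioneins and 0.644% in MTF1. The values of MT1X and MT1G are therefore the least certain as values of a single gene.

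Promoter sequence from RefSeq on GRCh38.p14 was at hand for MT2A, MT1X and MTF1. The 250 bases before the start of MT2A and MT1X are shown because they hold the metal response element cores through which MTF1 acts. The capitals mark matches to the core, TGCACNC or TGCGCNC, on either strand, and 5′ to 3′ is the direction of transcription. The MT2A window is chr16:56608334-56608583, plus strand, and lies within the gene as GENCODE 29 draws it, since that annotation starts MT2A farther upstream. The MT1X window is chr16:56682220-56682469, plus strand.
MT2A: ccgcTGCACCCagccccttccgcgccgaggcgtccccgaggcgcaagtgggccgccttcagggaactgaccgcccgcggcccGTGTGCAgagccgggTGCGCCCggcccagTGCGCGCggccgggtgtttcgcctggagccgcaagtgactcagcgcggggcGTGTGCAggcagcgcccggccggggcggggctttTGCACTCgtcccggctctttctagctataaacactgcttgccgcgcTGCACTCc
MT1X: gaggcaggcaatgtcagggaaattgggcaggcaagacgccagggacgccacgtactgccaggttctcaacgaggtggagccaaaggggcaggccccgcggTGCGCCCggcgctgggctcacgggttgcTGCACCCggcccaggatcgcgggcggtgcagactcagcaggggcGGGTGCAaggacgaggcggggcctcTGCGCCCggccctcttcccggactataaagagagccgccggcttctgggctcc
The MT2A window held 7 core matches, of which 5 were TGCACNC and 2 TGCGCNC, and the MT1X window held 4. At least 4 core matches were found in 0.370% of the 35116 promoter windows searched, at least 1 in 24.8%, and the MTF1 window had none. The letters TGACTCA, the element bound by AP-1, occurred in the MT2A window, 104 bases before the start, but not in that of MT1X, and in 4.20% of all windows. A TATA box, TATAAA, lay 29 bases before the start of MT2A and 30 before that of MT1X, and 10.7% of all windows held these letters. A match is a run of letters and not a measured binding site.

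The metallothioneins together made up 1.02% of all TPM in NG, 1.27% in HG, 1.42% with the siRNA and 1.05% with overexpression. Their summed level (mean ± SD, n = 3) was 10193 ± 841 TPM in the NG libraries, 12734 ± 749 in those of HG, 14193 ± 742 in those of si-FGF9 and 10522 ± 108 in those of HG+OE-FGF9. The sums of HG (12120 to 13569) and si-FGF9 (13581 to 15017) lay above all of NG (9224 to 10728), whereas those of HG+OE-FGF9 (10399 to 10602) lay inside the NG range. In these bulk samples a level is a share of all RNA measured, and more RNA from these genes cannot be told apart from less RNA from others, nor fewer cells of a type from less RNA per cell. Over all genes, the median log2 fold change against NG was -0.39 for HG and -0.79 for si-FGF9. When libraries were rescaled by the median of ratios, which sets the typical gene to no change, the sum relative to NG went from 1.25 to 1.81 times for HG, from 1.39 to 2.88 times for si-FGF9 and from 1.03 to 1.68 times for HG+OE-FGF9.

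MT2A dominated the family in every library, and it ranked between the 5th and the 16th most abundant gene of those tested. Its share of the metallothionein TPM was (mean ± SD, n = 3) 77.6% ± 0.9 for NG, 84.5% ± 3.5 for HG, 80.9% ± 1.2 for si-FGF9 and 82.8% ± 1.2 for HG+OE-FGF9. MT1X came next, with 15.2% for NG, 9.34% for HG, 14.2% for si-FGF9 and 11.8% for HG+OE-FGF9. Its HG libraries split, at 7.92%, 6.87% and 13.2% in replicates 1, 2 and 3. The share of MT1E was 4.92% in NG and 2.85% in si-FGF9, and its 3 NG libraries lay within 4.89% and 4.93%. The 3 least abundant genes, MT1A, MT1M and MT1G, each stayed at or under 0.52% of the sum.

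**Figure D1:**
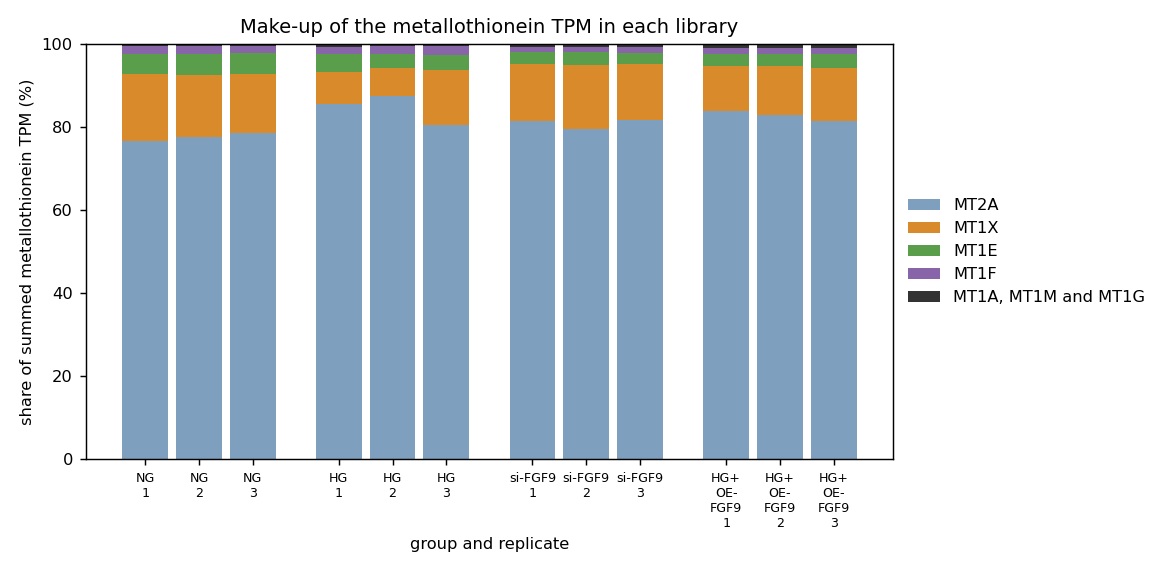
Share of each metallothionein in the summed metallothionein TPM (%, y axis) for each of the 12 libraries (x axis, by group and replicate). MT2A takes 76.7% to 87.5% of every bar, and the MT1X part is smallest in HG replicates 1 and 2.

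MT2A is the most widely expressed human metallothionein. It was measured at 7072, 8235 and 8420 TPM in NG, at 10692, 11868 and 9768 in HG, and at 12250, 11117 and 11081 in si-FGF9. The HG+OE-FGF9 values were 8893, 8763 and 8483. All libraries of HG, si-FGF9 and HG+OE-FGF9 lay above all of NG, and HG and si-FGF9 overlapped each other. The log2 fold change of TPM + 1 was 0.45 ± 0.10 (SE) in the glucose comparison, with an adjusted p of 0.00479 in limma, and 0.54 ± 0.10 in the siRNA comparison, with an adjusted p of 0.000571. Neither reached the fold of 1 on the log2 scale that the study asked of a differentially expressed gene (DEG), beside an unadjusted p under 0.01. In the overexpression comparison it was -0.30 ± 0.10, with no overlap between the groups on TPM as deposited but an adjusted p of 0.088 in limma. Rescaling by the median of ratios gave 1.59 for the siRNA and 0.97 for glucose. So rescaled, HG (8640 to 13187) and HG+OE-FGF9 (7784 to 10457) overlapped.

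MT1X was the second in level, at 1476, 1607 and 1541 TPM in NG. The HG libraries split, with 991 and 932 TPM in replicates 1 and 2 and 1602 in replicate 3, which lay inside the NG range. Values in si-FGF9 were 2036, 2157 and 1854 TPM, above every library of the other groups. Those in HG+OE-FGF9 were 1159, 1246 and 1327, below all of NG on TPM as deposited. The log2 fold change was -0.43 ± 0.17 in the glucose comparison (adjusted p = 0.0552 in limma), and without HG replicate 3 it was -0.68 ± 0.10 (adjusted p = 0.000269). It was 0.39 ± 0.17 in the siRNA comparison (adjusted p = 0.0651 in limma) and 0.12 ± 0.17 in the overexpression comparison (adjusted p = 0.657), the latter moving to 0.37 ± 0.10 (adjusted p = 0.0306) without HG replicate 3. The lower level in HG did not hold under median-of-ratios scaling, where the difference was 0.09. Nor did that in HG+OE-FGF9, which with this scaling was at 1218 to 1466, above the 964 to 1077 of NG. Set against MT2A in the same library, MT1X was lowest in HG replicates 1 and 2. The ratio of MT2A to MT1X was 10.8 and 12.7 there, 6.10 in HG replicate 3, and between 4.79 and 7.67 in the 9 libraries of the other groups. This ratio does not depend on the scaling of a library.

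MT1E and MT1F, further metal-inducible members, both had their lowest mean TPM in HG+OE-FGF9. Divided by the median-of-ratios factors, MT1F was lowest in NG (111 to 133, against 141 to 204 in HG+OE-FGF9), and MT1E was at 297 to 360 in NG and 316 to 358 in HG+OE-FGF9. MT1E was measured at 455, 523 and 525 TPM in NG, 514, 458 and 438 in HG, and at 425, 425 and 364 in si-FGF9. With overexpression the values were 305, 288 and 344. NG and HG overlapped, si-FGF9 lay below both, and HG+OE-FGF9 lay below all other groups on TPM as deposited. In the overexpression comparison the log2 fold change of MT1E was -0.59 ± 0.12, with an adjusted p of 0.0121 in limma, and it passed 0.05 in 3 of 6 fits with a library left out, not without HG replicate 1, HG+OE-FGF9 replicate 1 or HG+OE-FGF9 replicate 2. It was -0.31 ± 0.12 in the siRNA comparison (adjusted p = 0.0385 in limma), where the direction turned to 0.74 with median-of-ratios scaling and to 0.15 after correction for GC content, and -0.09 ± 0.12 in the glucose comparison (adjusted p = 0.562), which turned to 0.43 and 0.07. The adjusted p of the siRNA value passed 0.05 in 1 of 6 fits with a library left out, the one without NG replicate 1.

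For MT1F, HG stood above the rest on TPM as deposited, at 229, 230 and 240 TPM. NG had 169, 199 and 178, and si-FGF9 had 192, 169 and 192. The HG+OE-FGF9 libraries had 155, 174 and 154. On this scale HG overlapped no other group, whereas NG overlapped both si-FGF9 and HG+OE-FGF9. The MT1F log2 fold change was 0.36 ± 0.11 in the glucose comparison (adjusted p = 0.0215 in limma) and -0.53 ± 0.11 in the overexpression comparison (adjusted p = 0.0141). These passed 0.05 in 4 of 6 fits, not without NG replicate 1 or 3, and in 5 of 6, not without HG+OE-FGF9 replicate 1. In the siRNA comparison it was 0.02, with a 95% interval from -0.23 to 0.26 on TPM as deposited. It became 1.06 with median-of-ratios scaling. Divided by the median-of-ratios factors, MT1F was at 209 to 255 in HG and 223 to 279 in si-FGF9, so these groups overlapped.

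On TPM as deposited with all libraries, MT1A had the highest fold change of the members with the siRNA. It was measured at 30.6, 31.8 and 31.8 TPM in NG and at 33.3, 32.7 and 34.8 in HG, against 57.0, 66.6 and 50.2 in si-FGF9. With overexpression it was at 46.7, 48.5 and 54.1. Every library of si-FGF9 and HG+OE-FGF9 lay above every library of NG and HG. The log2 fold change was 0.85 ± 0.13 in the siRNA comparison (adjusted p = 0.00013 in limma), a TPM ratio of 1.84, and it was 0.55 ± 0.13 in the overexpression comparison (adjusted p = 0.025). In the glucose comparison it was 0.09 ± 0.13 (adjusted p = 0.595 in limma). It passed an adjusted p of 0.05 in 6 of 6 fits with a library left out for the siRNA, but in 3 of 6 for overexpression, where it was lost without HG replicate 1, HG+OE-FGF9 replicate 1 or HG+OE-FGF9 replicate 2. Without si-FGF9 replicate 3, MT1M was higher, at 0.99 against 0.95. After correction for GC content the si-FGF9 value was 1.48 and met the DEG criteria. With length corrected as well, it was 0.65, and the HG+OE-FGF9 value turned to -0.11.

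MT1M and MT1G had the lowest mean TPM over the 12 libraries of the metallothioneins tested, and within NG, HG and si-FGF9 their TPM had the widest spread of the members relative to the mean. MT1M was measured at 16.1, 24.1 and 27.0 TPM in NG, 50.0, 45.6 and 23.1 in HG, and at 50.4, 39.2 and 22.8 in si-FGF9. In HG+OE-FGF9 it was at 35.0, 35.4 and 29.3. On TPM as deposited, replicates 1 and 2 of both HG and si-FGF9 lay above all of NG and replicate 3 lay within it. The log2 fold change of MT1M was 0.75 ± 0.32 in the glucose comparison (adjusted p = 0.0737 in limma), and without HG replicate 3 it was 1.09 ± 0.29 (adjusted p = 0.00856) and met the DEG criteria. It was 0.68 ± 0.32 in the siRNA comparison (adjusted p = 0.0818 in limma), and 0.99 ± 0.32 (adjusted p = 0.0168) without si-FGF9 replicate 3. With FGF9 overexpressed it was -0.18 ± 0.32 (adjusted p = 0.74 in limma), with values from -0.52 to 0.02 as each library was left out.

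MT1G, another metal-inducible member, was at 4.43, 7.19 and 5.43 TPM in NG, 2.78, 3.24 and 14.4 in HG, and at 6.89, 6.68 and 16.1 in si-FGF9. The HG+OE-FGF9 values were 9.27, 8.18 and 6.68. The neighbouring groups overlapped throughout, and replicate 3 was the high library in both HG and si-FGF9. Without si-FGF9 replicate 3 the log2 fold change of MT1G in the siRNA comparison went from 0.62 ± 0.47 to 0.24 ± 0.49. None of its comparisons passed, with adjusted p in limma of 0.918 (glucose), 0.262 (siRNA) and 0.488 (overexpression). Leaving out HG replicate 3 moved the log2 fold change in the glucose comparison from -0.07 to -0.72 (adjusted p = 0.0802), and that in the overexpression comparison from 0.52 to 1.17 (adjusted p = 0.0367 in limma), which met the DEG criteria. Within a library, the ratio of MT1G to MT1M was 0.623 in HG replicate 3 and 0.708 in si-FGF9 replicate 3, and between 0.0557 and 0.298 in the other 10 libraries. The libraries high for MT1G were thus the low ones of their groups for MT1M.

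**Figure D2:**
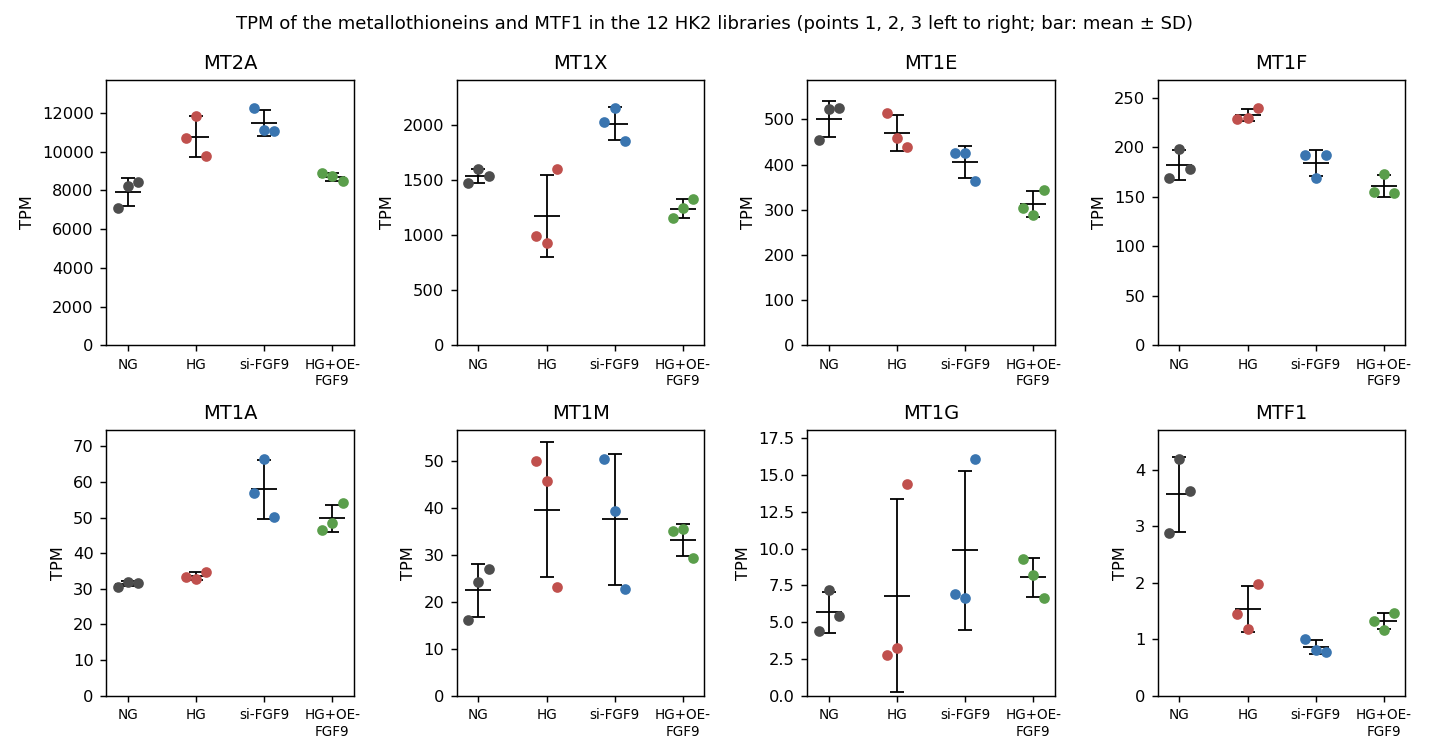
TPM (y axis, linear, from 0) of each of the 8 genes in the 3 libraries of each group (x axis). Points are libraries, with replicates 1 to 3 from left to right, and bars show the mean ± SD. MT2A and MT1A are higher in all si-FGF9 libraries than in all NG libraries, MTF1 is lower, and HG replicate 3 departs from the other HG libraries for MT1X, MT1M and MT1G.

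MTF1, the regulator, was measured at low levels, 2.88, 4.20 and 3.63 TPM in NG, 1.44, 1.18 and 1.98 in HG, and at 1.01, 0.81 and 0.77 in si-FGF9. With overexpression the values were 1.33, 1.17 and 1.46. All 9 libraries of the other groups lay below all of NG, and on TPM as deposited si-FGF9 lay below all others. The mean TPM in si-FGF9 was 0.242 of that in NG. The log2 fold change of TPM + 1 was -1.29 ± 0.18 in the siRNA comparison, with an adjusted p of 5.64e-05 in limma, and MTF1 was the only member that met the DEG criteria on TPM as deposited with all libraries, as did 47.6% of all genes tested. It kept to them in 6 of 6 fits with a library of that comparison left out. In the glucose comparison it was -0.85 ± 0.18 (adjusted p = 0.00289 in limma), and in the overexpression comparison -0.12 ± 0.18 (adjusted p = 0.689). At such levels the added 1 TPM shrinks a fold change. With 0.1 TPM added instead, the HG value was -1.18 and met the criteria. The fall with the siRNA was smaller under other scalings. It was -0.62 with median-of-ratios scaling, -0.42 after correction for GC content and -0.08 after correction for GC content and length, and it did not meet the criteria in any of these. The MTF1 transcript had a GC content of 46.7% and 7972 bases, and the longest transcripts of the metallothioneins, which the corrections used, had 50.5% to 62.5% and 396 to 1727 bases.

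Set side by side, the members differed in direction. In the glucose comparison, 0 of 8 members met the DEG criteria in limma, against 24.4% of all genes tested. An unadjusted p under 0.05 was found for 5 of 8. No share of all genes at that unadjusted threshold is given, here or for the lists below, so such counts have no background beside them. An adjusted p under 0.05 was found for 3 of 8, against 49.0% of all genes. These were MT2A and MT1F, which were higher, and MTF1, which was lower. Among all genes, 8.53% were higher and 40.5% lower at that threshold. The members' median log2 fold change was 0.01, beside -0.39 for all genes. In the siRNA comparison, 1 of 8 met the DEG criteria, against 47.6% of all genes, and 4 of 8 had an adjusted p under 0.05, against 69.3%. MT2A and MT1A were higher, in a direction that 11.6% of all genes took, and MT1E and MTF1 lower, as did 57.7%. The members' median was 0.46, beside -0.79 for all genes. In the overexpression comparison, 0 of 8 met the DEG criteria in limma, against 5.61%, 4 of 8 had an unadjusted p under 0.05, and 3 of 8 had an adjusted p under 0.05, against 9.53%, a count of 1395 genes that ran from 384 to 3615 with a library left out and was 143 with the 6 libraries alone. MT1A was higher, as were 4.82% of all genes, and MT1E and MT1F lower, as were 4.71%. The medians were -0.15 and -0.13. An exact permutation test of 3 libraries against 3 cannot give a p below 0.1, the value of every comparison of a member without overlap. Such comparisons numbered 4 of 8 in the glucose comparison, where 57.2% of all genes did not overlap, 5 of 8 with the siRNA (76.4%), and 4 of 8 with overexpression (22.1%).

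**Figure D3:**
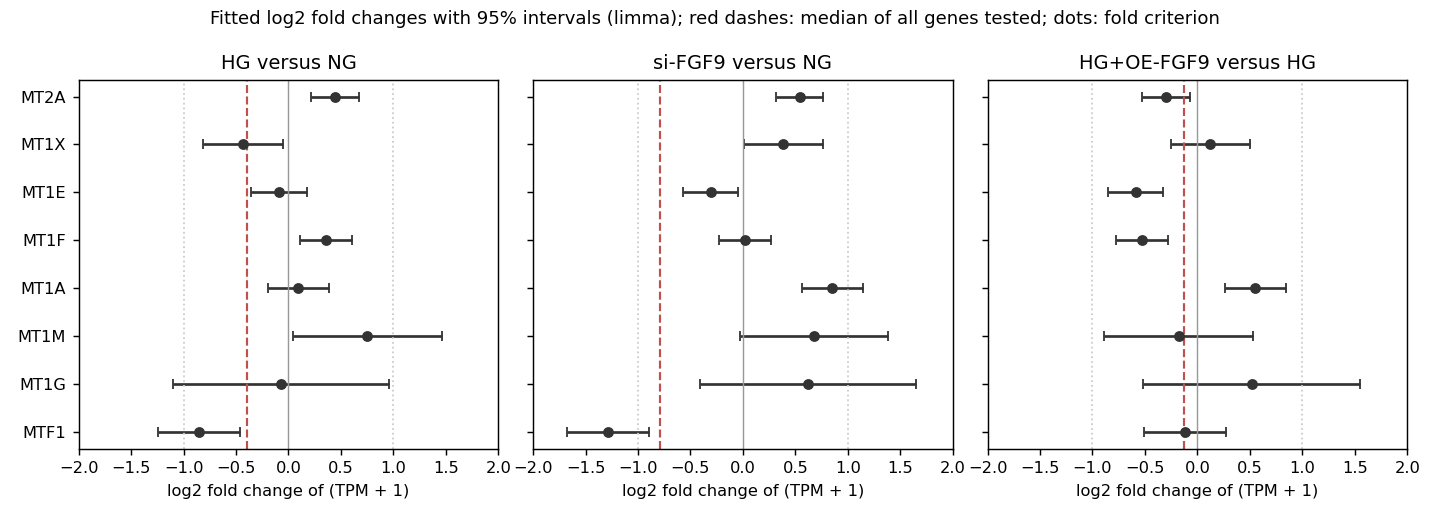
Log2 fold change of TPM + 1 (x axis, 95% intervals from limma) of each member in the 3 comparisons. The red dashed line is the median of all genes tested (-0.39, -0.79 and -0.13) and dotted lines mark the fold asked of a DEG. In si-FGF9 versus NG, MTF1 lies at -1.29 and MT1A at 0.85.

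How the members compared with NG depended on what was held constant. With median-of-ratios scaling in the siRNA comparison, 6 of the 7 metallothioneins met the DEG criteria, all higher, where 19.2% of all genes were called higher. They had log2 fold changes of 1.88 in MT1A, 1.68 in MT1M, 1.59 in MT2A, 1.52 in MT1G, 1.44 in MT1X and 1.06 in MT1F, and MT1E was at 0.74. With quantile normalization 3 did, against 16.2% of all genes called higher, which were MT1G at 1.62, MT1A at 1.47 and MT1M at 1.43. Without si-FGF9 replicate 3, an alternative chosen after seeing the data, MT1G no longer met the criteria under either scaling, at 1.10 (adjusted p = 0.0677 in limma) and 1.25 (adjusted p = 0.0386), and the members called were 5 and 2. Of 14639 genes, 2678 and 2242 were called higher in these fits. With GC content corrected MT1A alone did, where 12.3% of all genes were called higher, and with length corrected as well no member did, against 19.9% of all genes called in either direction. In the glucose comparison, MT1M met the criteria with median-of-ratios scaling (1.25) and with quantile normalization (1.23), as did 7.43% and 6.94% of all genes in that direction. For overexpression no member met them under any of these settings, which called 4.88% to 5.50% of all genes. The direction of MT2A, MT1F in HG, MT1A in si-FGF9 and MTF1 in both comparisons with NG was kept under all of them.

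**Figure D4:**
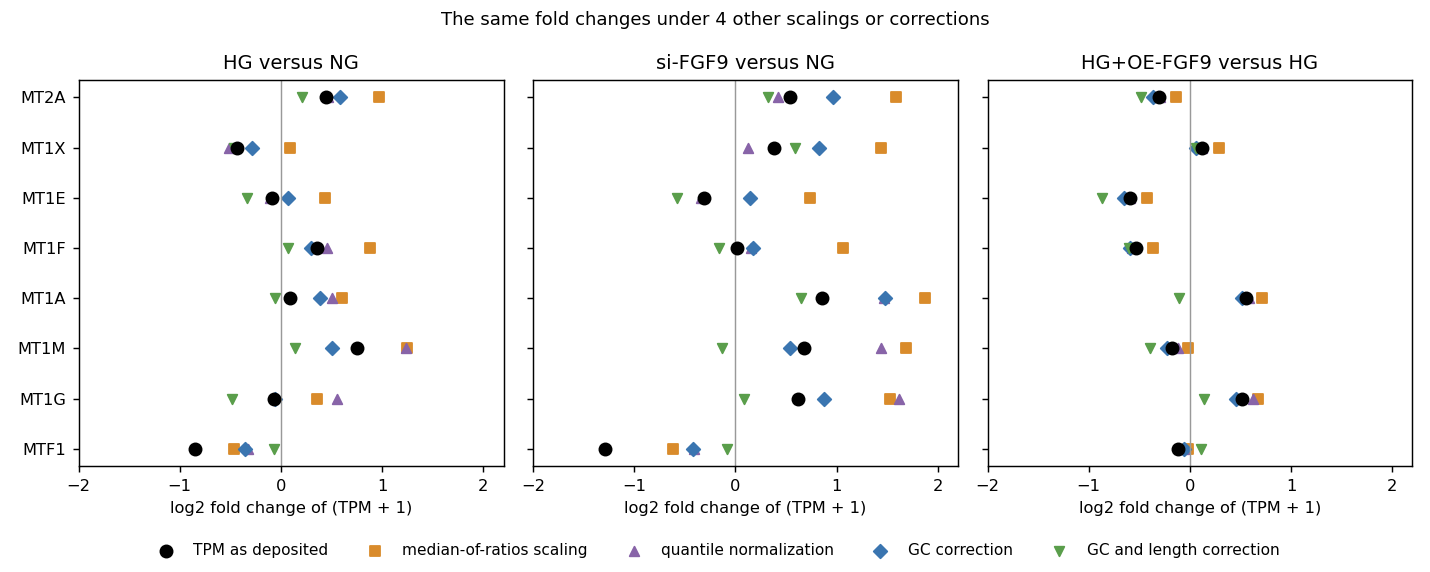
Log2 fold change of TPM + 1 (x axis) of each member in the 3 comparisons, on TPM as deposited (black circles) and under 4 other scalings or corrections. In si-FGF9 versus NG the MT2A value runs from 0.32 to 1.59 and the MTF1 value from -1.29 to -0.08.

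The spread of a member over the 12 libraries, as the SD of log2(TPM + 1), was 0.22 for MT1F, 0.25 for MT2A, 0.29 for MT1E, 0.38 for MT1X, 0.39 for MT1A, 0.50 for MT1M, 0.52 for MTF1 and 0.65 for MT1G, beside a median of 0.55 over all genes tested. Between members, the profiles centred on their own means were closest for MT1F and MT2A, with a root mean square difference of 0.23 on the log2 scale, and for MT1E and MT1F (0.24). They were farthest for MT1G and MT1M (0.93), and that of MTF1 with MT2A was 0.69. The measure is not scaled by spread, so members that vary little are close on it even where their patterns differ. In the siRNA comparison, MT2A was at 0.54 and MT1F at 0.02. Among 5822 other protein-coding genes with a mean of at least 10 TPM, the 5 profiles most like that of MT2A over the 12 libraries included those of LY6E (0.094), GDPD5, CD81 and NDUFB1 (0.12), where the median gene was at 0.58. Those most like MTF1 were CHRAC1 (0.115), WLS, SLC31A1, WASF2 and TNFRSF21 (0.149), with the median gene at 0.54. SLC31A1 encodes the copper importer CTR1, and its mean was 21.9 TPM for NG, 11.5 for HG, 8.16 for si-FGF9 and 11.6 for HG+OE-FGF9.

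Of the 5 further metallothionein genes listed, none was high enough to be tested. MT1B reached at most 1.49 TPM in any library and MT1H 0.23, and MT3, MT4 and MT1HL1 were listed at 0 in all 12.

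Zinc exporters of the ZnT family carry zinc out of the cytosol, and SLC30A1, at the plasma membrane, is a classic MTF1 target. Of the 10 genes listed, 5 were tested. In the glucose comparison 4 of them met the DEG criteria, all lower, and in the siRNA comparison all 5 did, all lower, where 22.7% and 42.2% of all genes were called lower. SLC30A1 was at 22.1 ± 3.7 TPM in NG, 6.99 ± 6.25 in HG and 6.32 ± 1.95 in si-FGF9 (mean ± SD, n = 3). Its log2 fold changes were -1.81 ± 0.43 (adjusted p = 0.0051 in limma) and -1.68 ± 0.43 (adjusted p = 0.00379). The vesicle and organelle members SLC30A9, SLC30A7 and SLC30A6 had log2 fold changes of -1.64, -1.44 and -1.04 in the glucose comparison and of -2.31, -2.24 and -1.89 in the siRNA comparison. The median of the list was -1.44 in the glucose comparison, beside -0.39 for all genes, and -1.89 in the siRNA comparison, beside -0.79. In the overexpression comparison 0 of 5 exporters met the criteria in limma, against 5.61% of all genes, with an unadjusted p under 0.05 in 2. After correction for GC content none of the 5 did in any comparison. That correction called 6.84% (glucose), 24.3% (siRNA) and 5.21% (overexpression) of all genes in either direction. SLC30A6 in the glucose comparison turned to 0.08. SLC30A1 in the siRNA comparison turned to 0.15 with length corrected as well. In both comparisons with NG, SLC30A1 thus had the direction of MTF1 and the opposite of MT2A on TPM as deposited. Without si-FGF9 replicate 3, 3 of the 5 exporters were called in the siRNA comparison, all lower, as were 5975 of 14639 genes.

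Zinc importers of the ZIP family bring zinc into the cytosol. Of 14 genes, 11 were tested, and 1 was called higher and 4 lower in the glucose comparison and 1 higher and 5 lower in the siRNA comparison, where 22.7% and 42.2% of all genes were called lower. With FGF9 overexpressed, limma called 0, against 5.61% of all genes, with an unadjusted p under 0.05 in 1. The importer called higher in both comparisons with NG was SLC39A4, the zinc importer known from the intestine. It was at 23.0 ± 9.1 TPM in NG, 55.7 ± 12.2 in HG and 68.9 ± 2.1 in si-FGF9. Its log2 fold changes were 1.30 ± 0.27 (adjusted p = 0.00265 in limma) and 1.63 ± 0.27 (adjusted p = 0.000178), in a direction that 1.65% and 5.36% of all genes took, and it met the criteria under each scaling and correction tried. SLC39A6, SLC39A10 and SLC39A8 had -1.65, -1.45 and -1.09 in the glucose comparison. In the siRNA comparison, SLC39A10 had -2.56, SLC39A14 -2.27, SLC39A6 -2.26 and SLC39A8 -1.82. Among these, SLC39A14 alone met the criteria after correction for GC content, in the siRNA comparison at -1.48. The list medians were -0.52 and -0.86. Without NG replicate 1 the counts in the glucose comparison were 0 higher and 2 lower, where 179 and 2814 of 14639 genes were called. Without HG replicate 2 they were 1 and 2, against 125 and 2113 of all genes.

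Copper is the other main metal bound by metallothioneins in a healthy cell. Of 15 genes of copper handling, 13 were tested, with 1 called higher and 1 lower in the glucose comparison and 3 higher and 5 lower in the siRNA comparison. Of all genes, 22.7% and 42.2% were called lower there, and 1.65% and 5.36% higher. With FGF9 overexpressed, limma called 0, against 5.61% of all genes, with an unadjusted p under 0.05 in 1. ATOX1, the chaperone that hands copper to the secretory pathway, was at 142 ± 15 TPM in NG and 494 ± 48 in si-FGF9, a log2 fold change of 1.79 ± 0.16 (adjusted p = 7.79e-06 in limma), and it met the criteria there under each scaling and correction tried. SCO2, a chaperone of cytochrome oxidase, had 1.13 in the glucose comparison and 1.43 in the siRNA comparison. MEMO1, a copper-binding protein, had -1.02 and -1.67. The low-affinity transporter gene SLC31A2 had -1.38 in the siRNA comparison, from 1.74 to 0.0433 TPM. The direction of MEMO1 did not hold, at 0.08 in the glucose comparison after correction for GC content and 0.15 in the siRNA comparison with length corrected as well. The list medians were -0.07 and -0.57. SCO2 in the glucose comparison no longer met the criteria with the replicate block, with the 6 libraries of that comparison alone or with no filter on low values. The counts for HG versus NG were 3 higher and 3 lower without HG replicate 3, where 567 and 4179 of 14639 genes were called. They were 0 and 0 without NG replicate 1 (179 and 2814 genes) or HG replicate 2 (125 and 2113). They were 0 higher and 1 lower without NG replicate 2, HG replicate 1 or any library of si-FGF9 or HG+OE-FGF9. With median-of-ratios scaling, 6 were called higher and 1 lower in the siRNA comparison, against 19.2% and 17.5% of all genes.

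Of 14 genes of the glucocorticoid receptor and its known targets, 11 were tested, with 6 called lower for glucose, 8 lower for the siRNA and 1 lower for overexpression, where 22.7%, 42.2% and 2.67% of all genes were called lower. None was called higher on TPM as deposited with all libraries. With median-of-ratios scaling, 2 were higher and 3 lower in the siRNA comparison, against 19.2% and 17.5% of all genes. NR3C1, the receptor, was at 34.1 ± 2.3 TPM in NG, 11.1 ± 5.5 in HG and 8.07 ± 1.56 in si-FGF9. SGK1, a kinase induced by the receptor, had log2 fold changes of -1.94 ± 0.17 (adjusted p = 5.88e-05 in limma) and -3.06 ± 0.17 (adjusted p = 1.13e-06). ZFP36 had -2.72 and -2.49 and ERRFI1 -2.03 and -2.66 in the same comparisons. Not every gene of the list fell, and its highest log2 fold changes were 0.23 and 0.64, which did not meet the criteria. After correction for GC content 3 were called lower in the glucose comparison and 4 in the siRNA comparison, against 3.06% of all genes for glucose and 1701 of 14191 genes for the siRNA, and NR3C1 was not among them (-0.57 and -0.35). CEBPD was the gene called lower in the overexpression comparison, at -1.11 ± 0.21 (adjusted p = 0.0086 in limma). With median-of-ratios scaling it was -0.95 and no longer called, and the list had 1 called higher and 0 lower, against 3.64% and 1.78% of all genes. Without HG replicate 2 or HG+OE-FGF9 replicate 3 the list had 3 called lower with overexpression. In these fits 929 and 1024 of 14639 genes were called lower. Without HG replicate 3 the list had 1 higher and 1 lower, against 535 and 456 of all genes. The list medians were -1.32, -1.82 and -0.52.

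The last list holds 9 coregulators of metallothionein genes and stress responses, all tested. With glucose 4 were called lower and with the siRNA 5, where 22.7% and 42.2% of all genes were. With FGF9 overexpressed, limma called 0, against 5.61% of all genes, with an unadjusted p under 0.05 in 2. NFE2L2, the oxidant-responsive factor NRF2, was at 63.7 ± 12.1 TPM in NG, 18.5 ± 11.2 in HG and 11.5 ± 2.9 in si-FGF9. Its log2 fold changes were -1.89 ± 0.37 (adjusted p = 0.00222 in limma) and -2.39 ± 0.37 (adjusted p = 0.000119). It met the criteria in both under each scaling and correction tried. SP1, KAT2B and EP300, a promoter-binding factor and a pair of histone acetyltransferases, had -1.39, -1.15 and -1.14 in the glucose comparison. In the siRNA comparison, CTCF had -1.90, EP300 -1.87 and SP1 -1.75. Of these values, EP300 in the siRNA comparison met the criteria after correction for GC content, at -1.33. Without HG replicate 2, 2 coregulators were called lower in the glucose comparison, as were 2113 of 14639 genes. With median-of-ratios scaling, 2 were called higher and 3 lower in the siRNA comparison, against 19.2% and 17.5% of all genes.

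**Figure D5:**
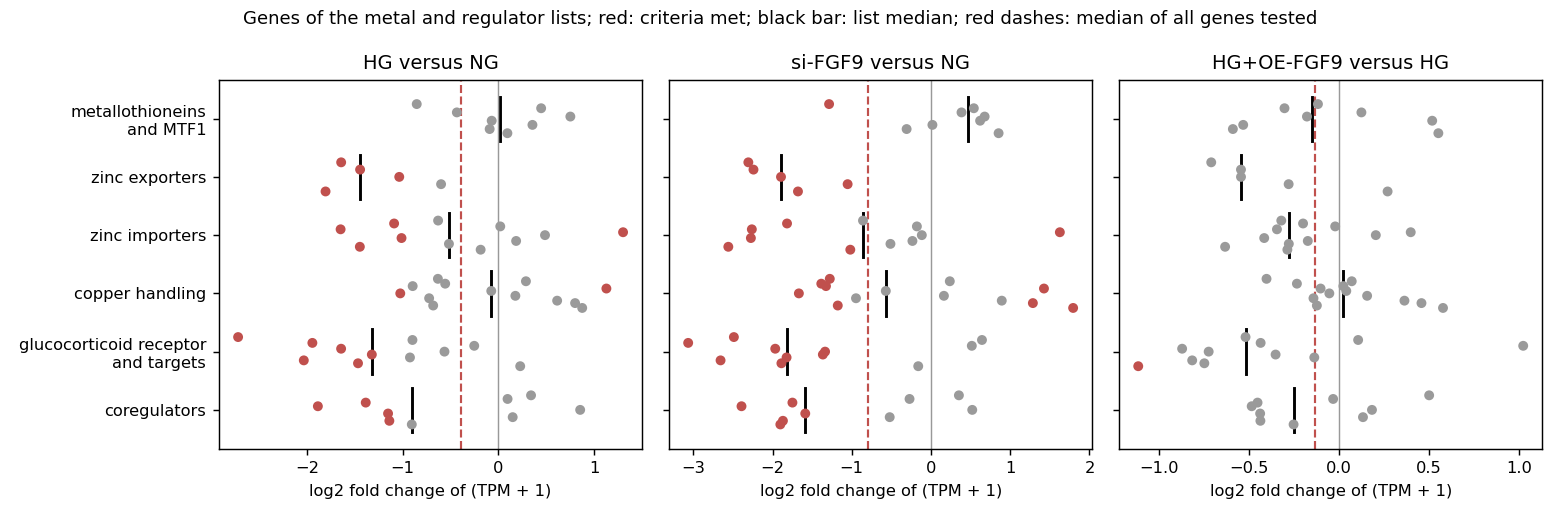
Log2 fold change of TPM + 1 (x axis) of each gene tested in the members' list and 5 lists of metal handling and regulation, in the 3 comparisons. Red points met the DEG criteria, black bars are list medians and the red dashed line is the median of all genes tested. All 5 zinc exporters tested are red in si-FGF9 versus NG, whereas MTF1 is the only red point among the members.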

How the data were processed

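The 12 RNA-seq libraries of HK2 cells were grouped by the labels. The authors deposited TPM per Ensembl gene identifier, a unit inferred from the values, which sum to the same total in each library and are given to 2 decimals. The submitters' processing notes name Bowtie 0.12.2 and the mouse build mm8, although the identifiers are human. The quantification tool and the annotation are not given in the sources used here. Since TPM hold no depth, precision was judged from the 3 libraries of each group alone. The paper's methods and the labels give NG 5.5 mM glucose, whereas the paper's results describe mannitol for it.

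Log2(TPM + 1) was fitted with limma 3.58.1 in R 4.3.3, using the trended empirical Bayes variance, on all 12 libraries with a term for group. A gene was tested if 3 or more libraries had it at 1 TPM or above, and p-values were adjusted by the Benjamini-Hochberg method over all of them. The study's rule for a DEG was used, a change of 1 or more on the log2 scale and an unadjusted p under 0.01. The fit was tested on simulated data. Sums and shares of TPM had no test. The alternatives were other filters, a pseudocount of 0.1, other thresholds, other scalings, the 6 libraries of each comparison alone, a replicate block, corrections for GC content and length, and each library left out in turn. GC content and length came from the longest GENCODE 29 transcript, known for 96.9% of the genes tested. For several metallothioneins that transcript is not the coding one.

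All members were named. From each other list, up to 4 DEGs with the largest absolute log2 fold change per comparison were named. Profiles were compared by the root mean square difference of centred log2(TPM + 1). A gene, a marker and a sequence that these rules select are not reported here. The members and lists were chosen with earlier results of these data known. Beside the lists in the results, the markers were of the distal nephron, podocytes, endothelium and leukocytes. Of the 6 distal nephron and 4 endothelial markers 0 were tested, being too low, and of 4 podocyte markers 2 were (SYNPO and PODXL), of 4 leukocyte markers 1 (CD68, at 108 to 159 TPM).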

Additional observations from a re-analysis of the deposited data

How the results depend on the processing

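Of 333 member values under alternatives that kept every library, 299 kept their direction and their side of the DEG criteria, and of 288 with a library left out 277 did. Among alternatives other than scaling, correction or leaving out, 211 of 213 did. These counts overstate how stable the values are, since many could not turn. Other filters, thresholds or variance models leave a log2 fold change as it was, and so does leaving out a library outside the comparison. Median-of-ratios scaling, quantile normalization and the corrections remove the shift of the typical gene between groups, which is part of their construction. In HG versus NG, 3570 genes were called (242 higher and 3328 lower). The count was 2370 when every one of the 12 libraries had to reach 1 TPM, 2299 (1088 and 1211) under median-of-ratios scaling, 2236 (1016 and 1220) under quantile normalization, 970 (536 and 434) with GC correction, 749 with GC and length correction, and 968 with GC correction and a replicate block. In si-FGF9 versus NG, 6966 were called (785 and 6181), against 3452 (1751 and 1701), 2817 and 3426 in the last 3 of these settings, and the split was 2812 and 2557 under median-of-ratios scaling and 2373 and 2500 under quantile normalization. In HG+OE-FGF9 versus HG, 821 were called, 428 with the filter in all 12 libraries. Members called in HG versus NG went from 0 to 1 with a pseudocount of 0.1, median-of-ratios scaling or quantile normalization. In si-FGF9 versus NG they went from 1 to 6 and 3 with these scalings, and to 0 with GC and length correction and with the filter in all 12 libraries, which leaves MTF1 untested. Without si-FGF9 replicate 3, an alternative chosen after seeing the data, these scalings called 5 and 2 members and 4561 genes under quantile normalization, and MT1E was at 0.78 under median-of-ratios scaling. The GC correction also gave 1, which was MT1A instead of MTF1. The summed TPM became 6839 for NG, 19713 for si-FGF9 and 11478 for HG+OE-FGF9 with median-of-ratios scaling.

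Directions turned as follows. In HG versus NG, median-of-ratios scaling gave 0.43 for MT1E, 0.35 for MT1G and 0.091 for MT1X, quantile normalization 0.55 for MT1G, GC correction 0.066 for MT1E with or without the block, and GC and length correction -0.055 for MT1A. In si-FGF9 versus NG, MT1E turned to 0.74 with median-of-ratios scaling and to 0.15 with GC correction, with or without the block, MT1F to -0.10 without mitochondrial and small RNA genes and to -0.16 with GC and length correction, and MT1M to -0.13 with the latter. In HG+OE-FGF9 versus HG, GC and length correction gave -0.11 for MT1A and 0.11 for MTF1. Where no construction explains a change, the cause was not tested.

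With each library left out, genes called ran from 2238 (without HG replicate 2) to 4746 (without HG replicate 3) in HG versus NG and from 549 (without HG+OE-FGF9 replicate 2) to 1617 (without HG+OE-FGF9 replicate 3) in HG+OE-FGF9 versus HG, and members called from 0 to 1 in both, the 1 being MT1M and MT1G without HG replicate 3. Values that turned ran from -0.72 to 0.30 for MT1G in HG versus NG, from -0.033 to 0.083 for MT1F in si-FGF9 versus NG, and in HG+OE-FGF9 versus HG from -0.52 to 0.024 for MT1M, -0.020 to 0.37 for MT1X and -0.22 to 0.0066 for MTF1.

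The replicate numbers were shared between groups, but the deviations of same-numbered libraries had correlations of -0.16 to 0.09 for HG with NG, -0.04 to 0.17 for si-FGF9 with NG and -0.14 to 0.25 for HG+OE-FGF9 with HG, so the numbers were not taken as pairs. With the replicate block 3518, 6922 and 793 genes were called in the 3 comparisons, and the members called were 0, 1 and 0, as without it. Of the copper genes, 0 were called higher and 1 lower in HG versus NG with the block, against 1 and 1 without it.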

Other observations

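Of 10 identifiers of metallothionein pseudogenes, 1 had values above 0. This identifier of MT1JP, named after its values were seen, was listed at 3.03, 3.38 and 2.70 TPM in NG, 3.93, 3.28 and 1.71 in HG, 0.92, 1.56 and 4.22 in si-FGF9. The HG+OE-FGF9 values were 0.91, 0.86 and 1.65. The other 9, among them a further identifier of MT1JP, were listed at 0 in all 12 libraries. How reads shared between these genes were assigned is not given in the sources used here. MT1JP shares runs of 50 bases with MT1E, MT1F, MT1G and MT1M.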
